A study of Mus musculus with 8 samples.

Results

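The genes described here encode isozymes of 4 steps of glycolysis, the pathway that splits glucose into pyruvate. They were chosen by symbol as 8 of the 22059 genes listed for every sample: the hexokinases Hk1, Hk2 and Hk3, the phosphofructokinases Pfkl and Pfkp, the aldolases Aldoa and Aldoc, and the pyruvate kinase Pklr. All 8 had a row in each sample, and all 8 passed the filter on low counts that left 17081 genes for testing. Whole livers of wild-type mice of the inbred FVB strain (FVB/NJ in the methods of the study) were sampled at embryonic day 18 (E18), postnatal day 14 (P14), postnatal day 28 (P28) and 3 months (adult), with 2 samples per stage and no treatment. Poly(A)-selected RNA was sequenced as read pairs of 100 bases to follow the liver transcriptome through postnatal maturation. The labels do not say that the samples of a stage came from separate animals, although the study calls them biological duplicates, and the p-values measure the spread between these samples only.

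Each glycolytic step can be catalysed by several proteins from different genes, which differ in affinity, in regulation and in the cells that make them. Hepatocytes of the mature liver are known for the liver form of phosphofructokinase (Pfkl) and for the L form of pyruvate kinase, which Pklr encodes. Fetal liver is also a site of blood formation, and red cells use Hk1, Aldoa and the R form of pyruvate kinase, which comes from a separate start of the same Pklr gene.

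Reads counted on genes ranged from 68154675 to 106055723 per sample. Levels are counts per 1000000 reads after TMM scaling (CPM), a scaling built on the assumption that the bulk of genes is stable, or RPKM where genes are compared with each other, since RPKM is divided by gene length. The TMM factors were 1.539 and 1.598 for the E18 samples and 0.847 to 0.888 for the other 6. Against library size alone, TMM moved the median of all genes by 0.85 on the log2 scale from E18 to adult and by 0.87 from E18 to P14, so a fold change that involves E18 depends on this choice. For the labelled tissue, 7 of 7 hepatocyte genes had reads above the floor of 3 in every stage, with Alb the highest by CPM. All 7 macrophage and all 6 endothelial genes did too, so passing this floor does not identify a tissue. Erythroid genes were high at E18 only: the 9 listed genes summed to 6883 and 8780 CPM there and to between 43.5 and 65.4 CPM in the 6 later samples. Traces of skeletal muscle genes were found in P14 replicate 2 (7 genes, 8.73 CPM in sum, against 0.545 in P14 replicate 1), and of the 7 pancreatic genes Cpa1, Ctrb1, Pnliprp1 and Cel fell past both thresholds from E18 to adult, whereas Cela1, the highest of that list by CPM, rose past both and Pnlip and Prss1 were not tested. A whole tissue was measured, so fewer cells of a type and less RNA per cell cannot be told apart.

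**Figure D1:**
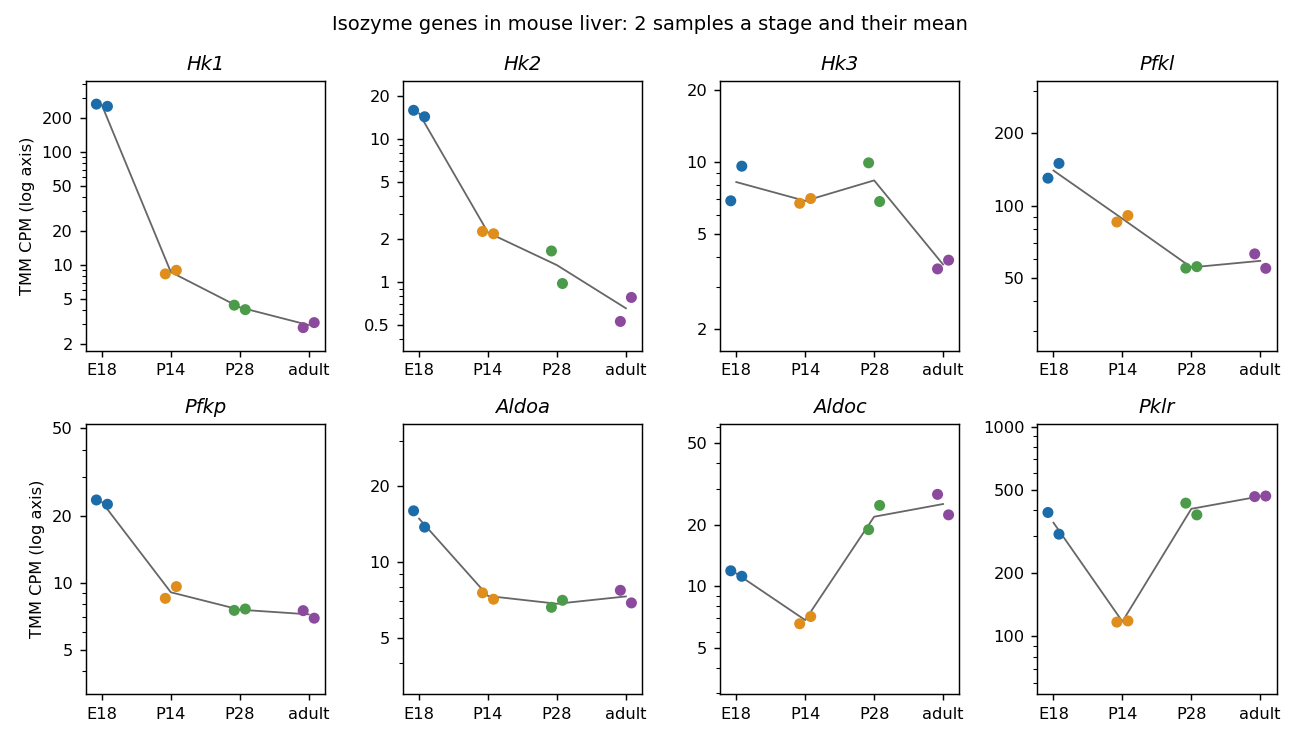
TMM CPM of each isozyme gene (log axis, a separate range per gene) at the 4 stages. Points are the 2 samples of a stage and the line joins their means. Hk1 and Hk2 fell at every step, whereas Aldoc and Pklr were lowest at P14.

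From E18 to adult, 3 of the 8 genes fell past both thresholds, a Benjamini-Hochberg adjusted p (false discovery rate) below 0.1 and more than a 3-fold difference, and none rose past both. The background was 23.8% of all tested genes falling and 16.8% rising past both thresholds. At the false discovery rate alone, 6 genes fell and Aldoc and Pklr rose, against 43.8% and 39.5% of all genes. Their median fold change on the log2 scale was -1.20, compared with -0.11 over all genes tested. The 3 genes past both thresholds were Hk1, Hk2 and Pfkp, and the next in size were Pfkl at -1.25 and Hk3 at -1.14 on the log2 scale.

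Hk1, the most widespread of the high-affinity hexokinases and the form of red cells, had the largest change of the 8. It lies on chr10:62268855-62379908 (GRCm38, minus strand). The E18 samples held 266 and 254 CPM of it, the P14 samples 8.37 and 9.01, the P28 samples 4.43 and 4.04, and the adult samples 2.80 and 3.10. The samples of every stage lay below all samples of the stage before, with no overlap. The fall to adult was 87.8-fold (log2 fold change -6.46 ± 0.12 SE; edgeR, adjusted p = 1.2e-09), and 29.9-fold of it was reached by P14 (log2 fold change -4.90 ± 0.10; edgeR, adjusted p = 4.7e-09). It went on falling by less than 3-fold in each later interval, by 1.04 on the log2 scale from P14 to P28 (edgeR, adjusted p = 6.4e-05) and by 0.52 from P28 to adult (edgeR, adjusted p = 0.013).

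Hk2, the isozyme of insulin-sensitive muscle and fat and of proliferating cells, also fell from each stage to the next and was lower per length than Hk1 at E18 (3.99 ± 0.36 against 84.4 ± 4.2 RPKM; SD, n = 2). It lies on chr6:82725025-82774454 (GRCm38, minus strand). It reached 15.8 and 14.2 CPM in the E18 samples, 2.26 and 2.18 in the P14 samples, 1.65 and 0.979 in the P28 samples, and 0.533 and 0.783 in the adult samples, where the values rest on 31 and 52 reads. Again the stages did not overlap, although the P28 and adult duplicates were spread more widely than those of the earlier stages. The fall to adult was 22.6-fold (log2 fold change -4.50 ± 0.27; edgeR, adjusted p = 3.6e-07). From E18 to P14 the log2 fold change was -2.76 ± 0.23 (edgeR, adjusted p = 5.3e-06).

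Hk3, a hexokinase found mainly in blood and immune cells, dropped late. It lies on chr13:55005985-55021385 (GRCm38, minus strand). The E18 pair gave 6.86 and 9.58 CPM, the P14 pair 6.70 and 7.01, the P28 pair 9.89 and 6.81, and the adult pair 3.56 and 3.87. The first 3 stages overlapped, and both adult samples lay below all others. The log2 fold change was -0.26 ± 0.21 from E18 to P14 and 0.29 ± 0.21 from P14 to P28, neither past the test (edgeR, adjusted p = 0.28 and 0.29), and leaving out a single sample turned the sign of each (0.01 without E18 replicate 2 and -0.01 without P28 replicate 1). From P28 to adult it fell by 1.17 ± 0.22 on the log2 scale (edgeR, adjusted p = 0.0089).

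The marker lists were set beside these genes. From E18 to P14, where Hk1 and Hk2 fell most, all 9 erythroid genes and all 8 neutrophil and myeloid precursor genes also fell past both thresholds. Slc4a1, the anion exchanger of red cells and the highest of the erythroid list by CPM, went from 3300 and 4052 CPM at E18 to 3.56 and 4.94 at P14. The erythroid sum then did not fall further (46.3 and 43.5 CPM at P14, 61.7 and 65.4 in adult), while Hk1 and Hk2 continued to fall. Most of that later sum was Alas2 (35.05 and 29.04 CPM at P14, 53.6 and 58.6 in adult). From P14 to P28, 6 of the 9 erythroid genes fell past both thresholds, against 1022 of all 17081 genes. Alas2 rose at the false discovery rate over that interval. The myeloid sum was 1032 and 1217 CPM at E18, 177 and 190 at P14, and 1.44 and 3.95 in adult. From P28 to adult, where Hk3 dropped, all 7 macrophage genes fell at the false discovery rate, and their sum went from 551 and 453 CPM to 247 and 258, with Clec4f, a marker of Kupffer cells, the highest of the list by CPM. At E18 the macrophage sum was 259 and 365 CPM, close to or above its adult values. Hk3 at E18 was 6.86 and 9.58 CPM against 3.56 and 3.87 in adult. From E18 to adult 5 of the 7 macrophage genes fell at the false discovery rate, as Hk3 did, against 43.8% of all genes. The other 2, Clec4f and Vsig4, rose, against 39.5%. Of the 6 endothelial genes, 5 also fell at the false discovery rate from P28 to adult, and the sum of all 6 went from 155 and 156 CPM to 106 and 91.1. Their part in the changes of Hk1, Hk2 and Hk3 was not tested.

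**Figure D2:**
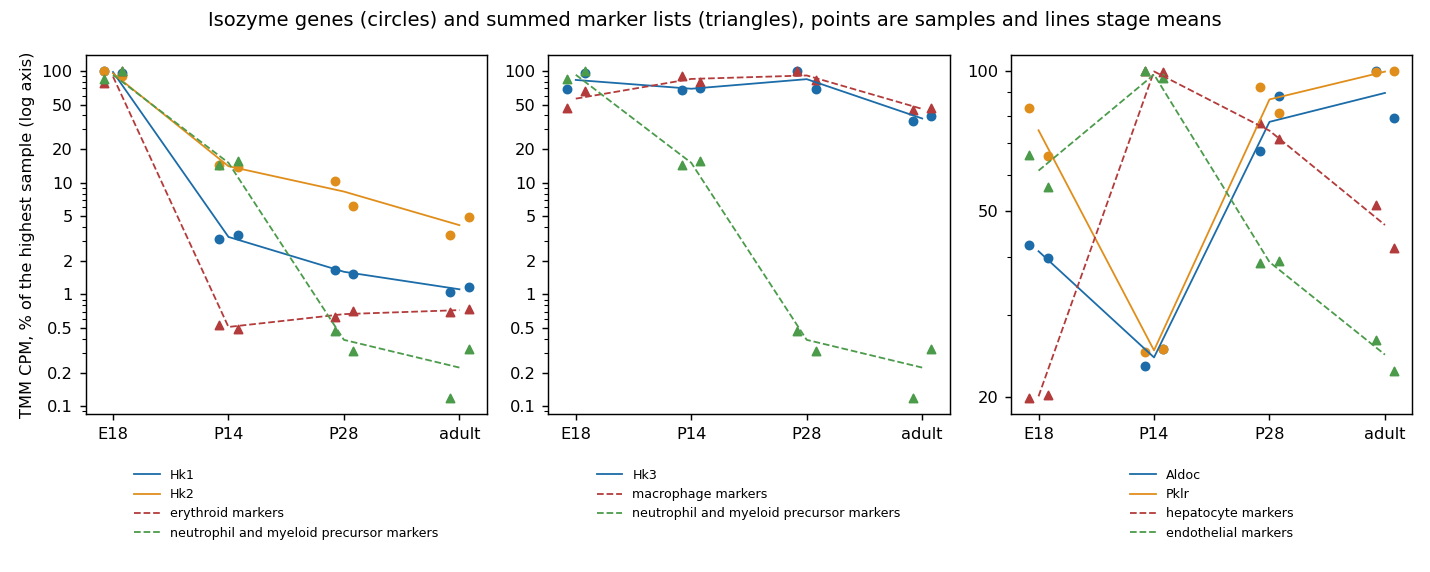
Isozyme genes (circles, solid lines) and summed marker lists (triangles, dashed lines) in TMM CPM as a percentage of the highest sample, on log axes with a separate range for the right panel. Points are samples and lines join stage means. The erythroid sum dropped from 6883 and 8780 CPM at E18 to 46.3 and 43.5 at P14 and then did not fall further, whereas Hk1 did. The later erythroid sum was mostly Alas2, and 6 of the 9 erythroid genes fell past both thresholds from P14 to P28, against 1022 of all 17081 genes. Hk3 and the macrophage sum were both lowest in adult, although the macrophage sum at E18 (259 and 365 CPM) lay near that in adult (247 and 258). Of the 7 macrophage genes, 5 fell and 2 rose at the false discovery rate from E18 to adult, against 43.8% and 39.5% of all genes. Beside Aldoc and Pklr, which were lowest at P14, the hepatocyte sum (mostly Alb, 212435 and 211442 CPM at P14) and the endothelial sum (399 and 385 CPM at P14) were highest there, although by stage mean Tdo2, Cps1, Tat and Cyp2e1 of the 7 hepatocyte genes were highest in adult and Lyve1 and Vwf of the 6 endothelial genes at E18.

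Relative to one another, the 3 hexokinases changed places. Shares were taken from RPKM within each sample, as a percentage of the sum over Hk1, Hk2 and Hk3, and need no scaling between samples. They are not shares of the whole hexokinase step. Hk1 made up 92.2% and 91.1% of the sum in the E18 samples, 43.0% and 44.0% in those of P14, 22.8% and 28.4% in those of P28, and 34.4% and 34.2% in the adult samples. Hk3 went the other way, with 3.28% and 4.74% in the E18 samples, 47.5% and 47.3% in the P14 samples, 70.2% and 66.0% in the P28 samples, and 60.2% and 58.8% in the adult samples. Its level did not rise past a threshold in any interval, so its larger share went with the lower level of Hk1. Hk2 held 4.33% ± 0.21 (SD, n = 2) at E18, 9.10% ± 0.56 at P14 and 6.20% ± 1.20 in adult.

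Summed over the 3 genes, the E18 samples stood at 94.7 and 89.4 RPKM, the P14 samples at 3.51 and 3.65, the P28 samples at 3.37 and 2.52, and the adult samples at 1.42 and 1.64. The E18 samples lay far above the 6 others, and both adult samples lay below both of every other stage. These RPKM are relative to all mapped reads, without TMM. Hkdc1, a further hexokinase that was not counted in these shares, was at 15.5 and 18.1 CPM at E18 and below 0.7 CPM in all later samples.

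**Figure D3:**
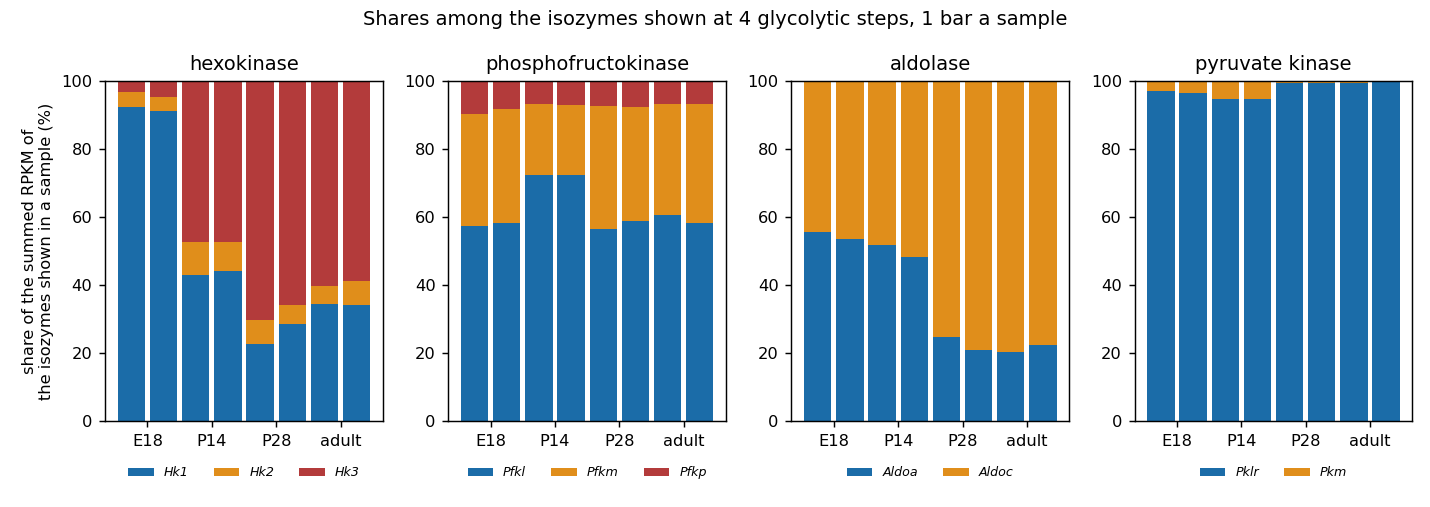
Share of each isozyme in the summed RPKM of the isozymes shown (percent, stacked to 100), with 1 bar per sample in the order of replicates 1 and 2 at each stage. Hk1 holds over 90% of the 3 hexokinases in both E18 samples and under 45% in the 6 others, whereas Pfkl and Pklr hold the largest share of their steps in all 8 samples.

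Phosphofructokinase sets the pace of glycolysis, and here both genes fell from E18 to adult. Pfkl, the liver form, lies on chr10:77986947-78010083 (GRCm38, minus strand). The E18 pair gave 130 and 150 CPM, the P14 pair 85.4 and 90.9, the P28 pair 54.9 and 55.7, and the adult pair 62.9 and 54.8. The P28 and adult samples overlapped and lay below those of P14 and E18. The log2 fold change to adult was -1.25 ± 0.11 (edgeR, adjusted p = 4e-06), short of 3-fold. It fell by 0.67 on the log2 scale in each of the first 2 intervals, with adjusted p = 3.4e-04 and 9.6e-04 in edgeR.

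Pfkp, the form named after platelets, lies on chr13:6579768-6648777 (GRCm38, minus strand). It stood at 23.7 and 22.7 CPM in the E18 samples, 8.52 and 9.62 in the P14 samples, 7.52 and 7.62 in the P28 samples, and 7.49 and 6.93 in the adult samples. The fall was nearly complete by P14, and the adult and P28 samples were close without overlapping. The log2 fold change to adult was -1.69 ± 0.11 (edgeR, adjusted p = 8.2e-07), a 3.22-fold fall that is only just past the threshold. Exons of Pitrm1, a gene with up to 23811 reads in a sample, overlap those of Pfkp on the opposite strand, and whether reads were assigned by strand is not stated.

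Within the step, Pfkl held 57.8% ± 0.8 (SD, n = 2) of the RPKM at E18, then 72.4% ± 0.1 at P14, 57.7% ± 1.6 by P28 and 59.5% ± 1.7 in adult livers. P14 stood apart from the other stages, where the muscle form Pfkm held 20.7% against 33.2% to 34.9%. Pfkp held 8.99% ± 1.06 at E18 and 6.81% to 7.37% at the later stages. Pfkm was at 61.5 and 70.4 CPM at E18 and 20.3 and 21.0 at P14, with a log2 fold change of -1.27 to adult, so the 3 genes fell together from E18 to adult. In RPKM the sum of the step was 90.6 and 99.9 at E18 and 20.5 to 22.0 in adult. This sum is without TMM, so its fall is not on the scale of the fold changes above.

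Aldolase cleaves fructose bisphosphate into a pair of triose phosphates. Aldoa, the form of muscle and red cells, lies on chr7:126795234-126800751 (GRCm38, minus strand). The E18 samples held 15.9 and 13.8 CPM, the P14 samples 7.56 and 7.13, the P28 samples 6.63 and 7.06, and the adult samples 7.73 and 6.90. The E18 samples lay above the 6 others, among which the stages lay close together. The log2 fold change from E18 to P14 was -1.02 ± 0.13 (edgeR, adjusted p = 7.7e-05), and the later intervals gave -0.10 ± 0.13 and 0.10 ± 0.13 (edgeR, adjusted p = 0.54 and 0.68). Of the windows of 50 bases in its coding transcripts (GENCODE M21, exact matches on either strand), 6.57% also occur in 6 other genes, 5 of them pseudogenes. Reads that match more than 1 place may have been lost, so that its level may be understated.

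Aldoc, the form known from brain, took another course. It lies on chr11:78322968-78327781 (GRCm38, plus strand). It stood at 11.9 and 11.2 CPM in the E18 samples, 6.57 and 7.12 in the P14 samples, 18.9 and 24.8 in the P28 samples, and 28.1 and 22.3 in the adult samples. P14 was lowest, E18 was intermediate, and P28 and adult overlapped above both. The rise from P14 to P28 was 3.2-fold (log2 fold change 1.68 ± 0.16; edgeR, adjusted p = 7e-05) and fell below 3-fold without P28 replicate 2, where the log2 fold change was 1.46. From E18 to adult the log2 fold change was 1.13 ± 0.16 (edgeR, adjusted p = 1.2e-04).

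Of the summed RPKM of Aldoa and Aldoc, which is not that of the whole aldolase step, Aldoa held 54.5% ± 1.5 (SD, n = 2) at E18, 50.1% ± 2.5 at P14, 22.8% ± 2.6 by P28 and 21.4% ± 1.4 in adult livers, and Aldoc the rest. The E18 and P14 samples thus lay near even shares, and in all 4 samples of P28 and adult Aldoc held over 75%.

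Pyruvate kinase makes the last step of the pathway. Pklr lies on chr3:89136142-89146784 (GRCm38, plus strand) and has a pair of annotated starts 481 bases apart, of which the upstream is known as the start of the red-cell R form and the downstream as that of the liver L form. The files hold 1 value per gene, so the forms cannot be told apart in these data. The 250 bases before each start are shown, because the markers of the 2 cell types that use them moved in opposite directions from E18 to P14: all 9 erythroid genes fell and all 7 hepatocyte genes rose past both thresholds. Sequences are from RefSeq on GRCm38.p6, plus strand, 5′ to 3′, at chr3:89135892-89136141 and chr3:89136373-89136622. In the first, capitals mark GATAA, the core of the site of GATA factors, 34 bases before the start, and the letters GGGTG, the reverse complement of CACCC, 68 bases before it. In the second, capitals mark an inverted repeat of CACGGG, 5 bases and CCCGTG, which begins 170 bases before the start. It is known as the carbohydrate response element of Pklr, bound by Mlxipl and Mlx.
Pklr before the upstream start: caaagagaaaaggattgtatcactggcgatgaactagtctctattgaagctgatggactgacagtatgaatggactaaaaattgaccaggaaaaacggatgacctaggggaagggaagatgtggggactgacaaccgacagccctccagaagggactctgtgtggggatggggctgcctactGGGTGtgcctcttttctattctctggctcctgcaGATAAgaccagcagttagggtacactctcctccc
Pklr before the downstream start: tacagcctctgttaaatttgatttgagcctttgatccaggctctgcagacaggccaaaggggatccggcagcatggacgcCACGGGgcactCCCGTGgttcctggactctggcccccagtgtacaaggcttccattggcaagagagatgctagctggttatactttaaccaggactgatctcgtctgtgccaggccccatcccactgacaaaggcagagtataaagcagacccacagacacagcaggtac
Both strands were searched, and the motifs do not overlap. Over 32536 windows of the same length, GATAA occurred in 22.5% and CACCC in 52.1%, so these matches are common. The inverted repeat was searched only in the letters it has in Pklr and occurred in 1 window, that of Pklr. It has more fixed letters than the other motifs. Its count can therefore not be compared with theirs and does not show that such elements are rare. A match describes the letters and was not tested as a binding site.

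For Pklr the E18 pair gave 390 and 308 CPM, the P14 pair 117 and 119, the P28 pair 432 and 380, and the adult pair 465 and 468. The P14 samples lay far below the 6 others, and both adult samples lay above both P28 samples by less than the spread at P28. From E18 to P14 the log2 fold change was -1.57 ± 0.13 (edgeR, adjusted p = 5.5e-06), a 2.96-fold fall just inside the 3-fold threshold, and from P14 to P28 it was 1.79 ± 0.13 (edgeR, adjusted p = 1.8e-05), a 3.45-fold rise. From E18 to adult it was 0.42 ± 0.13 (edgeR, adjusted p = 0.014), and under library size alone it turned to -0.44. Relative to the median of all genes both scalings gave 0.52, but a change of scaling moves every gene and the median alike. This agreement was fixed in advance and does not settle the sign. Exons of Hcn3 overlap Pklr on the opposite strand, with at most 1491 reads on Hcn3 in a sample, against 10571 or more on Pklr.

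Pkm, the pyruvate kinase of most other tissues, was at 10.4 CPM in both E18 samples, 6.12 and 6.05 in the P14 samples, 2.41 and 1.82 in the P28 samples, and 2.08 and 1.58 in the adult samples. Pkm had a smaller fold change than Pklr from E18 to P14 (-0.77 on the log2 scale). The share of Pklr in the step was 96.9% ± 0.5 (SD, n = 2) at E18, 94.7% ± 0.1 at P14, then 99.4% ± 0.1 by P28 and 99.6% ± 0.1 in adult livers. Of the windows of Pkm, 23.7% are shared with other genes, so its share may be understated.

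Each share was tested over the 4 stages by an exact permutation test of F over 105 partitions of the samples, in which the smallest possible p is 0.00952. Hk1, Hk3 and Pklr reached that smallest exact p of 0.00952. Aldoa and Aldoc, whose shares add to 100% and so share 1 test, gave an exact p of 0.0190, and Pfkp, Hk2 and Pfkl gave 0.0381, 0.0476 and 0.0857. With a Benjamini-Hochberg correction over the 8 genes, 5 shares differed among stages (adjusted exact p = 0.0254 for Hk1, Hk3 and Pklr and 0.0305 for the aldolases). The number fell to 3 without E18 replicate 1 or without P14 replicate 2, where the aldolases gave an adjusted exact p of 0.0635, and rose to 6 without adult replicate 1 or 2, where Hk2 was added.

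The intervals divided the 8 genes by time. From E18 to P14, Hk1 and Hk2 fell past both thresholds, against 15.4% of all genes, and 7 of 8 fell at the false discovery rate alone, against 39.3%, the exception being Hk3. From P14 to P28, Aldoc and Pklr rose past both thresholds, where 3.61% of all genes did. At the false discovery rate alone these 2 were still the ones that rose, against 25.2%, and Hk1, Hk2, Pfkl and Pfkp fell, against 28.6%. From P28 to adult, 0 genes passed both thresholds in edgeR or in DESeq2, against 2.24% of all genes falling past both. Hk1, Hk2 and Hk3 fell at the false discovery rate, against 13.2% of all genes, and these 3 were also those with an unadjusted p under 0.05.

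**Figure D4:**
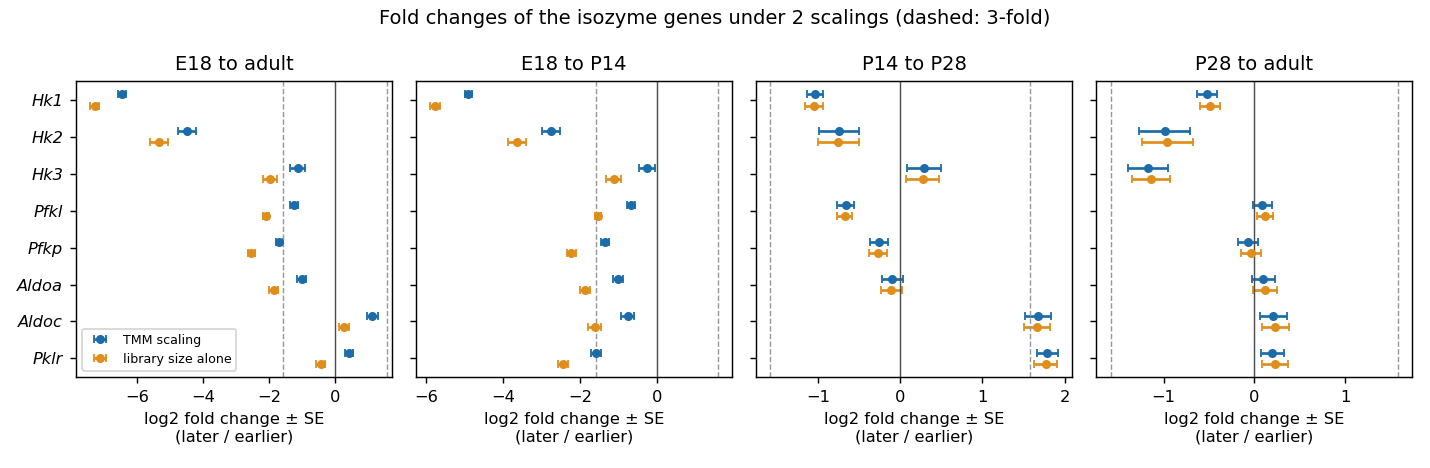
Log2 fold change ± SE of each gene over 4 comparisons, with TMM scaling (blue) and with library size alone (orange). The dashed lines mark 3-fold, and the range of the axis differs between panels. Values that involve E18 shift by about the same amount for every gene, and Pklr from E18 to adult changes sign, from 0.42 to -0.44.

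Under library size alone 6 of 8 genes fell past both thresholds from E18 to adult, since Hk3, Pfkl and Aldoa then did so too. The same scaling called 1653 genes up and 6159 down, against 2863 and 4061 with TMM. Aldoc from E18 to adult was 0.27 under library size, so the size of its rise and the sign of that of Pklr depend on the scaling, whereas shares within a step do not use one.

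The genes whose course over the 8 samples was most like that of each isozyme gene were found by the root mean square difference of log2 CPM centred on its mean. Hk1 was closest to Lyl1, a transcription factor of blood progenitors (0.0735), Atp2b4, a plasma membrane calcium pump, and Scd2. Hk2 was closest to Cass4 (0.201), Zfp783 and AI467606. Hk3 was closest to Fcgr1, an Fc receptor of macrophages (0.0859), P2ry13 and Fam167a. Pfkl was closest to Banf1 (0.0798), Arhgdia and 2610528E23Rik, and Pfkp to Tdp1 (0.0745), Rbm43 and Traf7. Aldoa was closest to Bms1 (0.0722), a ribosome assembly factor, and to the translation factors Eif3a and Eef1b2. Aldoc was closest to Gba2 (0.145), Mbnl2 and Creg1, and Pklr to Tbc1d2 (0.179), Mtap9 and Dhcr7, an enzyme of cholesterol synthesis. The nearest genes of Hk2, Pklr and Aldoc were thus farther away than those of the 5 others.

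The other genes of glucose handling gave the setting. Of 26 further genes of the pathway, its transporters and its regulators, 6 rose and 6 fell past both thresholds from E18 to adult. Over all tested genes, 16.8% rose and 23.8% fell past both. Among 3 other isozymes, Hkdc1 and Pkm fell by 5.78 ± 0.44 and 2.51 ± 0.18 on the log2 scale and Pfkm by less than 3-fold. Among 11 genes of the other steps, 1 passed both thresholds: Eno2, the neuronal enolase, fell by 2.34 on the log2 scale on 201 to 453 reads at E18 and 21 and 40 in adult. The largest increase in that list was that of Tpi1, at 0.62.

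Among the 12 transporters and regulators, 6 rose and 3 fell past both thresholds, against 16.8% and 23.8% of all genes. Khk, the ketohexokinase that starts fructose breakdown, rose most (24.1 and 31.8 CPM at E18, 872 and 891 in adult). Slc2a3, a high-affinity glucose transporter, fell most (34.2 and 33.1 CPM at E18, 0.464 and 0.452 in adult). Mlxipl, the glucose-responsive factor named above for the Pklr element, was at 35.5 and 28.4 CPM in the E18 samples, 206 and 187 in those of P14, 460 and 428 in those of P28, and 469 and 530 in the adult samples. Its stages rose in order, the last interval not past the test (log2 fold change 0.17 ± 0.13; edgeR, adjusted p = 0.44). Pklr instead fell to P14 and then rose. Of the 4 genes of the reverse, gluconeogenic reactions, Pck1 rose most, from 0.274 and 0.662 CPM at E18 to 3267 and 2719 in adult, and Fbp2 had the largest decrease, with a log2 fold change of -3.67.

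**Figure D5:**
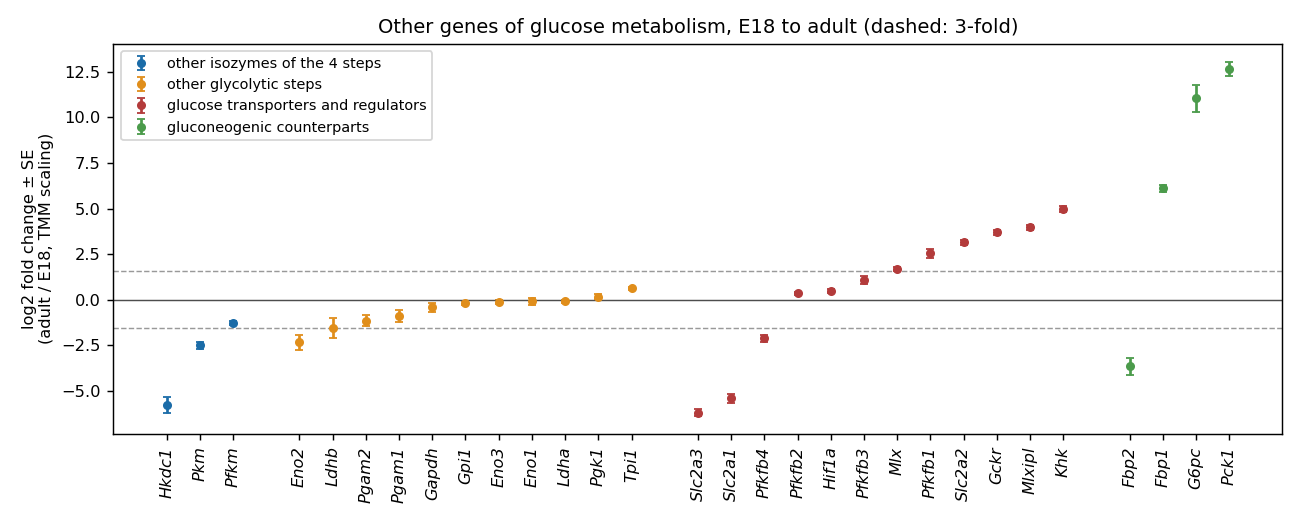
Log2 fold change ± SE from E18 to adult (TMM scaling) of the other isozymes, the other glycolytic steps, the transporters and regulators, and the gluconeogenic genes. The dashed lines mark 3-fold. Most genes of the other glycolytic steps lie between the lines, with Eno2 at -2.34 the one past both thresholds.

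Read counts of several genes of the other steps were low for such abundant enzymes. Gapdh had 132 to 540 reads in a sample, and 58.4% of its windows of 50 bases occur in other genes, 209 of them pseudogenes. For Pgk1, Eno1 and Pgam1 the shares were 68.0%, 49.5% and 41.5%. Among the 8 isozyme genes the share was 0 for Hk2, Hk3 and Aldoc, 1.64% for Hk1 and 0.0532% for Pfkl, and it was 15.4% for Pfkp and 21.8% for Pklr, each through its overlapping opposite gene.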

How the data were processed

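The 8 genes and all gene lists were chosen with earlier results of these data known. The authors aligned the reads, counted them per gene and deposited raw read counts and RPKM (reads per kilobase and 1000000 mapped reads), without pooling replicates. The labels give genome build mm9. The aligner, the treatment of reads with several matches and strandedness are not given in the sources used here. RNA was isolated with Trizol per the labels, whereas the paper's methods give a column kit. Stage and replicate number came from the labels.

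Counts were filtered with filterByExpr and TMM-scaled, and all 8 samples were fitted with 1 coefficient per stage by glmQLFit and tested by glmQLFTest in edgeR (version 4.0.16), with Benjamini-Hochberg adjustment over 17081 genes. SE is the log2 fold change divided by the root of F. Shares used deposited RPKM and exact permutation tests (numpy 2.4.6). They were planned over all isozymes of a step and were taken over Hk1, Hk2 and Hk3, over Pfkl, Pfkm and Pfkp, over Aldoa and Aldoc, and over Pklr and Pkm, a choice made after seeing the data, since some other isozymes are not reported here. The scripts were tested on simulated data. Alternatives used DESeq2 (version 1.42.0), limma (version 3.58.1) on log2(RPKM + 0.1), other filters and scalings, thresholds of 0.05 and 2-fold, the replicate block and each sample left out. Depth was 68154675 to 106055723 reads on genes, and 3 reads were taken as the floor. Named genes were all isozymes, the extremes of each list, the highest gene of each marker list and the 3 nearest patterns per gene. Others named (Pgk1, Eno1, Pgam1, Gapdh, Mlxipl, Mlx, Lyve1, Vwf, 4 hepatocyte genes and the pancreatic genes) were chosen after their values were seen. Positions came from GENCODE M21 and starts from RefSeq.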

Additional observations from a re-analysis of the deposited data

How the results depend on the processing

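Of 512 values of the 8 genes' log2 fold changes under alternatives, 489 kept direction and call, 17 newly passed both thresholds, 1 no longer did and 5 changed sign. The sign changes were Pklr from E18 to adult (-0.44 under library size alone and -0.45 in limma), Hk3 from E18 to P14 (-0.48 to 0.01 with a sample left out), Hk3 from P14 to P28 (-0.01 to 0.53) and Pfkl from P28 to adult (-0.01 to 0.18). From E18 to adult, 3 genes had changed, and 6 did under library size alone, 6 in limma and 7 with a 2-fold threshold. From E18 to P14, 2 had changed, and 6, 5 and 5 did under the same alternatives. Falls past both thresholds over all 17081 genes numbered 4061 from E18 to adult, 6159 under library size alone and 4821 in limma. For E18 to P14 these numbers were 2636, 5095 and 3761. Over all genes, calls with the 2-fold threshold were not counted. From P14 to P28 the 2 became 1 to 2 when a sample was left out, and from P28 to adult the 0 became 1 (Hk3) with a 2-fold threshold. For shares, 5 differed, 3 to 6 did when a sample was left out, and 7 did in read counts not divided by length. Depth limits the lowest values, such as Hk2 in adult with 31 and 52 reads. Deviations of same-numbered samples from their stage means correlated with r from -0.381 to 0.133 over 9815 genes. These values cannot show whether the numbers pair samples. With the replicate block the counts of changed isozyme genes stayed at 3, 2, 2 and 0 in the 4 comparisons. That of other pathway genes stayed at 12. The causes were not tested.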
